A study of Mus musculus with 6 samples.

Results

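Acute phase plasma proteins are secreted, mostly by hepatocytes, in amounts that move with inflammation. The 10 genes described here encode the serum amyloids (*Saa1*, *Saa2*, *Saa3*, *Saa4*), the orosomucoids (*Orm1*, *Orm2*, *Orm3*), haptoglobin (*Hp*), hemopexin (*Hpx*) and lipocalin 2 (*Lcn2*). They were chosen by gene family, with earlier results of these data known, so the shares of all genes set beside them are descriptions only. They are 10 out of 54115 mouse genes with transcripts in the deposited quantifications. All 10 were among the 12524 genes that passed the filter on low counts and were tested. In livers of aged *Sirt7* KO mice, *Orm1*, *Orm2*, *Orm3* and *Saa4* were each higher in all 3 mice than in any WT mouse, by 1.79-, 3.25-, 2.13- and 1.80-fold on average, although none passed edgeR's test after adjustment over all genes. *Saa1*, *Saa2* and *Lcn2* varied 10.1-fold to 23.8-fold among the 3 WT mice, and their genotypes overlapped.

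RNA-seq was performed on liver RNA of male mice, 3 of WT and 3 of *Sirt7* KO genotype, which at 24 months of age had been fasted for 16 h. *Sirt7* encodes a nuclear deacylase of the sirtuin family. According to the methods of the study, the KO allele was backcrossed to C57BL/6J, and the WT and KO mice were littermates from heterozygous crosses. Both genotypes were aged and fasted, so no young or fed liver is among these samples, and the labels name no inflammatory stimulus.

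In an acute phase response, IL-6 acts through its receptor and STAT3, and IL-1 and TNF act through NF-κB and C/EBP factors. They raise the transcription of many of these genes in hepatocytes. Serum amyloids 1 and 2 are the inducible amyloids carried on high-density lipoprotein, serum amyloid 3 is made in many tissues by macrophages and other cells, and serum amyloid 4 is the constitutive form. Orosomucoids bind drugs and lipids in plasma, haptoglobin binds free hemoglobin, hemopexin binds free heme, and lipocalin 2 binds the siderophores by which bacteria take up iron.

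Depth was 9994860 to 13424776 reads per liver. Values are CPM, reads scaled to the TMM-corrected size of each library, unless given as TPM, and the 3 values of a genotype follow the mouse numbers 1 to 3 of the labels. *Sirt7* itself stood at 55.2, 45.5 and 47.3 CPM in WT mice and at 28.6, 41.8 and 40.8 CPM in *Sirt7* KO mice, which is lower in every KO mouse (log2 fold change -0.41, standard error (SE) 0.18, adjusted p = 0.42 in edgeR). A sum over the gene also counts reads from any part of the locus that the KO allele keeps, so it does not measure the deleted part. Summed hepatocyte markers were at 67262 to 75553 CPM in WT mice and at 64782 to 80282 CPM in KO mice. WT mouse 1 and KO mouse 1 stood apart from the other livers of their genotype. The chi-square per gene between livers of the same genotype was 65.2 and 76.5 for the pairs with WT mouse 1, against 26.3 for WT mice 2 and 3. It was 60.1 and 48.1 for the pairs with KO mouse 1, against 16.9 for KO mice 2 and 3. Results are therefore also given without these mice.

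The serum amyloid genes lie within 42.3 kb of chromosome 7 of GRCm38 and the orosomucoid genes within 21.3 kb of chromosome 4, and several of them are close copies of each other. The main mRNAs of *Saa1* and *Saa2* were 87.3% identical, those of *Orm1* and *Orm2* 91.0%, and those of *Orm2* and *Orm3* 88.3%. The bases just upstream of the transcription start are shown for pairs of neighboring copies, *Saa1* with *Saa2* and *Orm2* with *Orm3*, and for *Saa4*, which lies in the same cluster as *Saa1* and had another pattern. They were taken from RefSeq for GRCm38.p6 and run from 5′ to 3′ on the strand of the gene up to the start, or for *Saa2* up to the base before the gene begins in GENCODE M21. Capitals mark matches to TTGCNNAA on either strand, a consensus of C/EBP factors, to the overlapping TTNNGCAAT, and to TATAAA.
Saa1, chr7:46742981-46743230, minus strand: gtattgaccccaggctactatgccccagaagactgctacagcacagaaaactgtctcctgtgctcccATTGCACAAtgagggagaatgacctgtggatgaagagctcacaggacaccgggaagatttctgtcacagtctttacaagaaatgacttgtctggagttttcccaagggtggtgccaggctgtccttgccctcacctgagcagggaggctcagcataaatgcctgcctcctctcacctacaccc
Saa2, chr7:46751583-46751789, plus strand: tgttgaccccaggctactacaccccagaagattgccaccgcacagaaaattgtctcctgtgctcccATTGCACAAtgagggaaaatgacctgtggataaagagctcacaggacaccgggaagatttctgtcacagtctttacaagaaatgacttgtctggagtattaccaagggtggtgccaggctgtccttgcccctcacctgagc
Saa4, chr7:46732604-46732853, minus strand: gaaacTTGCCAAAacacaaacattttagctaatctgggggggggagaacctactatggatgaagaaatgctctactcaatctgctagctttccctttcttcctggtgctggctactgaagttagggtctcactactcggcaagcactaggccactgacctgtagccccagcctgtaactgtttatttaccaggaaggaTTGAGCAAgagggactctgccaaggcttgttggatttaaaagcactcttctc
Orm2, chr4:63362199-63362448, plus strand: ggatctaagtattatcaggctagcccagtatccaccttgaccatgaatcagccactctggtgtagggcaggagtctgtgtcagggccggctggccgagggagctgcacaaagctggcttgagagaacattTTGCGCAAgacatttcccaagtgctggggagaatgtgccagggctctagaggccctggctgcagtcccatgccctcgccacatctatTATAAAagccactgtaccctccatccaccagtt
Orm3, chr4:63355908-63356157, plus strand: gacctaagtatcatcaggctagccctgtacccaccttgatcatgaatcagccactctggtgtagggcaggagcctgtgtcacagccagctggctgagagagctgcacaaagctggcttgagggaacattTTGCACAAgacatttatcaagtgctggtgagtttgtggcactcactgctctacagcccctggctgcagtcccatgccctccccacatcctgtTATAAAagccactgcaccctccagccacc

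RefSeq promoters, from 250 bases before to 50 after the start, were matched for 8 of the 10 genes, the exceptions being *Orm1* and *Hp*. TTGCNNAA was found on either strand in all 8, compared with 10.8% of 32544 mouse promoters of the same length. It lay at -182 to -175 from the start in *Saa1*, at -183 to -176 in *Saa2*, at -120 to -113 in *Orm2* and at -121 to -114 in *Orm3*. In the other 4 genes it lay at -245 to -238 and at -52 to -45 (*Saa4*), at -99 to -92 (*Saa3*), at -216 to -209 (*Lcn2*) and at -200 to -193 (*Hpx*). TTNNGCAAT was found in *Saa1* and *Saa2*, where it overlaps the TTGCNNAA match, and in 2.18% of all promoters. TATAAA was found in *Orm2* and *Orm3* and in 13.6% of all promoters. GGACTTTCC, a consensus of NF-κB, TTCNNNGAA, a consensus of STAT factors, and GTTAATNAT, a consensus of HNF1, were not found on either strand of these 8 windows. They occur in 0.347%, 8.33% and 0.808% of all promoters. Strings this rare are often absent from 8 windows, and other forms of these consensus sequences were not searched. The upstream 250 bases of *Saa1* and *Saa2* were 94.8% identical and those of *Orm2* and *Orm3* 85.9%, so matches within a pair are not independent of each other. *Saa1* and *Lcn2* were 53.5% identical over the columns of a gapped alignment of these bases. On the same measure *Saa1* was 52.2% identical to *Saa3* and 49.5% to *Saa4*.

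The members differed widely in level. As means of 6 livers on the TPM scale, which is per transcript length, *Hp* stood at 4277, *Hpx* at 3568, *Orm1* at 1290, *Saa1* at 629, *Saa2* at 184, *Saa4* at 100.1, *Lcn2* at 85.5, *Orm2* at 66.5, *Saa3* at 37.6 and *Orm3* at 21.1. Neighbors in this order overlapped between livers for every pair except *Hpx* and *Orm1*. Of all reads on genes, the 10 genes together held 1.64%, 0.911% and 0.966% in the WT livers and 1.56%, 1.14% and 1.35% in the KO livers, and *Hp* and *Hpx* held 85.3% to 92.3% of that share. Each gene was read mainly from 1 mRNA, which held at least 92.3% of its reads in every liver.

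Which of these genes differ between WT and *Sirt7* KO livers was asked with edgeR's quasi-likelihood test. None of the 10 was called, for which adjusted p had to be under 0.05 and the change over 1.5-fold, and 0.00798% of all tested genes were called. At an unadjusted p-value under 0.05, 4 of the 10 were higher in KO mice and 0 lower, where 6.54% of all tested genes were higher and 11.3% passed in either direction. These 4 were *Orm1*, *Orm2*, *Orm3* and *Saa4*, and all differed by over 1.5-fold, as did 7.39% of all tested genes in either direction. The orosomucoids among them are neighboring close copies that share sequence, so these are not 4 independent genes. The same 4 genes had all 3 KO livers above all 3 WT livers, compared with 8.74% of tested genes, and the other 6 overlapped. The log2 fold change was above 0 for 9 of the 10, compared with 49.3% of tested genes, and its median was 0.51, compared with -0.01 over all tested genes. Scaled to total counts, which moved the median of all genes to -0.11, it was above 0 for 8 of the 10. DESeq2, the tool named in the methods of the study, called 3 of the 10 with offsets for transcript length (*Orm1*, adjusted p = 0.0033, *Orm2*, adjusted p = 0.00046, and *Saa4*, adjusted p = 0.013), where it called 1.81% of all genes. Without the offsets it added *Orm3* (adjusted p = 0.037) and called 2.11% of all genes.

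**Figure D1:**
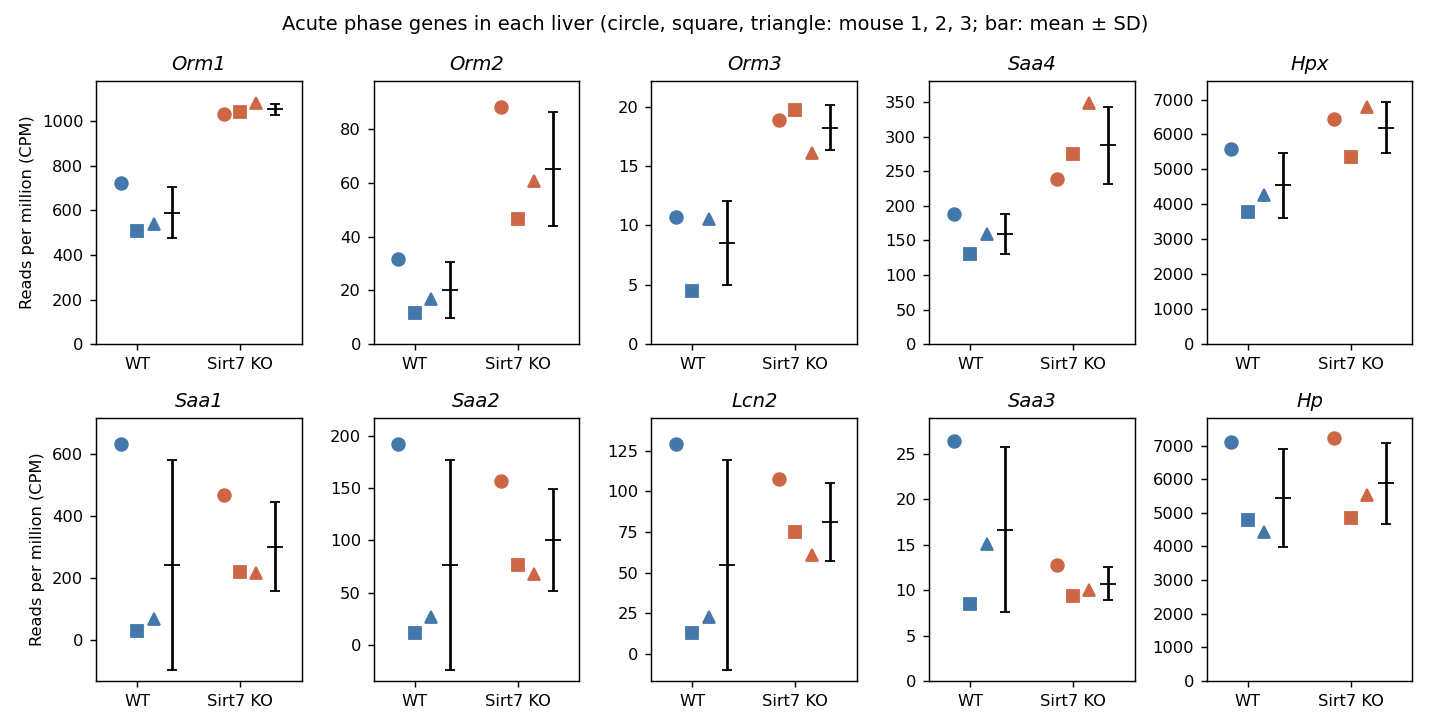
CPM (reads scaled to library size, vertical axes, each gene on its own scale) of the 10 genes in the 3 WT and 3 *Sirt7* KO livers, with circle, square and triangle for mice 1, 2 and 3 and bars for the mean ± SD (n = 3). All 3 KO livers lie above all 3 WT livers for *Orm1*, *Orm2*, *Orm3* and *Saa4*, while in *Saa1*, *Saa2* and *Lcn2* WT mouse 1 is the highest of the 6 livers and WT mice 2 and 3 are the lowest.

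All 3 orosomucoids separated the genotypes. *Orm1* (ENSMUSG00000039196.2, chr4:63344560-63348163, plus strand), the main orosomucoid of these livers, stood at 721, 509 and 538 CPM in WT mice and at 1035, 1041 and 1084 CPM in *Sirt7* KO mice. The 3 KO livers lay within 1.05-fold of each other and all were above the highest WT liver. The means were 590 ± 115 and 1053 ± 26.5 CPM (SD, n = 3), a log2 fold change of 0.84 (SE 0.17, unadjusted p = 0.00098, adjusted p = 0.15 in edgeR). In bulk liver, a higher level per cell and a larger share of the cells that make the mRNA cannot be told apart.

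*Orm2* (ENSMUSG00000061540.3, chr4:63362449-63365878, plus strand) had the largest log2 fold change of the 10 when all 6 livers were used. It stood at 31.7, 11.7 and 16.9 CPM in WT mice and at 88.4, 46.6 and 60.6 CPM in *Sirt7* KO mice, so that the lowest KO liver was above the highest WT liver. The means were 20.1 ± 10.4 and 65.2 ± 21.2 CPM (SD, n = 3), a log2 fold change of 1.70 (SE 0.36, unadjusted p = 0.0012, adjusted p = 0.15 in edgeR). *Orm3* (ENSMUSG00000028359.4, chr4:63356162-63359511, plus strand) was the least abundant, at 10.7, 4.45 and 10.5 CPM in WT mice and 18.9, 19.7 and 16.1 CPM in KO mice. Again the groups did not overlap, and the log2 fold change was 1.09 (SE 0.31, adjusted p = 0.23 in edgeR). *Orm3* rests on 49 to 206 reads per liver.

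Because the orosomucoid mRNAs share sequence, the split of reads among them is less certain than their sum. Of the 75-base windows of the *Orm1* and *Orm2* mRNAs, 13.8% and 14% occur without mismatch in another orosomucoid mRNA, and 0.143% of those of *Orm3*. These figures leave out windows that differ by a few bases, and the *Orm3* mRNA was 86.4% identical to that of *Orm1*. *Orm3* had 49 to 206 reads per liver beside 5613 to 11300 of *Orm1*, so a small share of misplaced reads could change it. Summed over the 3 genes, the reads stood at 764, 525 and 566 CPM in WT mice and at 1142, 1108 and 1160 CPM in *Sirt7* KO mice. The sum kept the groups apart as *Orm1* did, which contributed at least 90.6% of it in every liver (log2 fold change 0.88, SE 0.18, adjusted p = 0.15 in edgeR). *Orm2* took 4.15%, 2.23% and 2.99% of orosomucoid reads in WT mice and 7.74%, 4.21% and 5.23% in KO mice. Its share was thus higher in every KO liver, by a narrow margin between WT mouse 1 and KO mouse 2.

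Genes whose groups are separate with 6 livers stay separate when 1 is left out, so only the size of the difference can move for *Orm1*, *Orm2*, *Orm3* and *Saa4*. Without WT mouse 1 the log2 fold changes were 1.00 for *Orm1*, 2.18 for *Orm2*, 1.27 for *Orm3* and 0.98 for *Saa4*, and without KO mouse 1 they were 0.85, 1.42, 1.06 and 0.97. Over all 6 ways of leaving out 1 liver they ranged from 0.74 to 1.00, from 1.42 to 2.18, from 0.78 to 1.27 and from 0.69 to 0.98. Only *Saa4* without KO mouse 1 passed the adjusted test (adjusted p = 0.045 in edgeR). The two-sided exact permutation test gave p = 0.1 for each of the 4, below which no comparison of 3 livers with 3 can go.

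The serum amyloids were not alike. *Saa4* (ENSMUSG00000040017.8, chr7:46727998-46732603, minus strand), the constitutive amyloid, stood at 188, 131 and 159 CPM in WT mice and at 239, 275 and 348 CPM in *Sirt7* KO mice. All KO livers were above all WT livers, in the order of *Orm1*. The means were 159 ± 28.4 and 287 ± 55.6 CPM (SD, n = 3), a log2 fold change of 0.85 (SE 0.19, unadjusted p = 0.0018, adjusted p = 0.17 in edgeR).

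*Saa1* (ENSMUSG00000074115.5, chr7:46740497-46742980, minus strand), an inducible amyloid, stood at 631, 26.5 and 67.1 CPM in WT mice and at 466, 217 and 216 CPM in *Sirt7* KO mice. WT mouse 1 was the highest of the 6 livers and WT mice 2 and 3 were the lowest, with all KO livers between them. The WT livers spanned 23.8-fold and the KO livers 2.15-fold. The means were 242 ± 338 and 299.7 ± 144 CPM (SD, n = 3), a difference smaller than the spread between mice (log2 fold change 0.31, SE 0.93, adjusted p = 0.94 in edgeR). *Saa2* (ENSMUSG00000057465.5, chr7:46751790-46754313, plus strand), the other inducible amyloid, had the same order of livers, at 192, 11.5 and 27.0 CPM in WT mice and 156, 77.0 and 68.0 CPM in KO mice (log2 fold change 0.39, SE 0.84, adjusted p = 0.91 in edgeR). *Saa1* had 2.31 to 3.29 reads for each read of *Saa2* in the 6 livers, a narrow range beside the 23.8-fold span of *Saa1* itself. The main mRNAs of these genes share few whole 75-base windows, 4.67% of those of *Saa1* and 1.04% of those of *Saa2*. Over all their transcripts, however, 46.0% of the 31-base words of *Saa1* occur in *Saa2* and 44.4% of those of *Saa2* in *Saa1*, so the split of reads between them is uncertain. Their summed reads gave a log2 fold change of 0.33 (SE 0.91, adjusted p = 0.93 in edgeR).

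*Lcn2* (ENSMUSG00000026822.14, chr2:32384633-32388252, minus strand), on another chromosome, followed the same order of livers as *Saa1* and *Saa2*. It stood at 129, 12.8 and 22.6 CPM in WT mice, a span of 10.1-fold, and at 108, 75.1 and 60.8 CPM in *Sirt7* KO mice. The genotypes overlapped through WT mouse 1 alone (log2 fold change 0.57, SE 0.71, adjusted p = 0.82 in edgeR). In *Saa1*, *Saa2* and *Lcn2*, the size of the difference depended on WT mouse 1. Without it the log2 fold changes were 2.67, 2.37 and 2.19, with adjusted p-values of 0.16, 0.19 and 0.10 in edgeR. Without KO mouse 1 they were -0.15, -0.08 and 0.31. Without WT mouse 1, all KO livers were above the remaining WT livers for 9 of the 10 genes, compared with 13.1% of all tested genes, *Saa3* being the exception. Of these 9, 4 were separate with all livers and had to remain so, and 5 were added. At an unadjusted p-value under 0.05, 8 of the 10 were then higher in KO mice, compared with 5.43% of all tested genes, and none was called. Without KO mouse 2, *Hpx* alone was added to the 4 genes, and 12.3% of tested genes had all KO livers above all WT livers. No member was added when another liver was left out. Without KO mouse 1, the remaining KO livers were above all WT livers for the same 4 of the 10, compared with 18.5% of all tested genes. The log2 fold change was then above 0 for 6 of the 10, with a median of 0.37, compared with -0.02 over all tested genes. It was above 0 for 7 of the 10 without WT mouse 2 and for 6 without WT mouse 3.

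**Figure D2:**
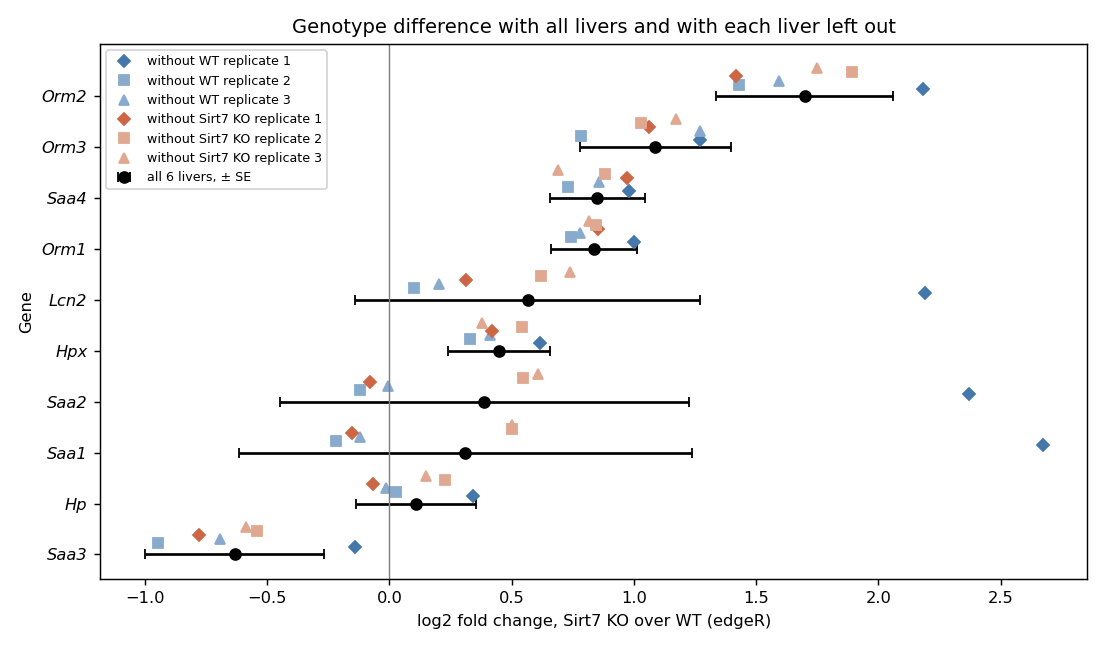
Log2 fold change of *Sirt7* KO over WT livers (horizontal axis, edgeR) for each of the 10 genes, with all 6 livers (black circles, bars of 1 standard error) and with each liver left out in turn (colored symbols). The points of *Orm1*, *Orm2*, *Orm3* and *Saa4* lie right of 0, as groups that do not overlap require, while *Saa1*, *Saa2* and *Lcn2* move to 2.67, 2.37 and 2.19 when WT mouse 1 is left out.

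*Saa3* (ENSMUSG00000040026.8, chr7:46711998-46715700, minus strand), the amyloid made in many tissues, was the only member with a fitted difference below 0 under TMM scaling. It stood at 26.4, 8.44 and 15.1 CPM in WT mice and at 12.8, 9.32 and 10.02 CPM in KO mice. WT mouse 2 was the lowest liver and WT mouse 1 the highest, so the groups overlapped (log2 fold change -0.63, SE 0.37, adjusted p = 0.57 in edgeR). Without WT mouse 1 the log2 fold change was -0.14. Without WT mouse 2 it was -0.95 (adjusted p = 0.42 in edgeR, with an unadjusted p-value under 0.05), and all KO livers were then below both remaining WT livers, as in 13.1% of tested genes. The summed reads of the 4 amyloids gave a log2 fold change of 0.50 (SE 0.56, adjusted p = 0.79 in edgeR).

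The hemoglobin and heme binding proteins were the most abundant members, and neither separated the genotypes. *Hp* (ENSMUSG00000031722.10, chr8:109575128-109579172, minus strand) stood at 7108, 4798 and 4430 CPM in WT mice and at 7222, 4856 and 5535 CPM in *Sirt7* KO mice. Mouse 1 of either genotype was higher than the other mice, and the means were 5445 ± 1452 and 5871 ± 1219 CPM (SD, n = 3; log2 fold change 0.11, SE 0.24, adjusted p = 0.91 in edgeR). *Hpx* (ENSMUSG00000030895.9, chr7:105591613-105600137, minus strand) stood at 5590, 3771 and 4270 CPM in WT mice and at 6446, 5363 and 6778 CPM in KO mice. Only WT mouse 1 reached the range of the KO livers (log2 fold change 0.45, SE 0.21, unadjusted p = 0.060, adjusted p = 0.46 in edgeR). *Hp* had 1.36 ± 0.15 TPM per TPM of *Hpx* in WT mice and 1.08 ± 0.18 in KO mice (SD, n = 3), and these ratios overlapped.

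The likeness of other genes to 3 members was measured over the 6 livers as the root mean square difference between log2(CPM + 0.5) profiles, each centered on its mean. For *Saa1*, the nearest of all tested genes were *Saa2* (0.19) and *Lcn2* (0.42), and outside the 10 genes they were *Mt2* (0.58), *Mt1* (0.62) and *Gm42887* (0.63). *Mt1* and *Mt2* encode metallothioneins, which bind zinc and copper. *Mt1* stood at 572, 59.0 and 134 CPM in WT mice and at 494, 433 and 162 CPM in *Sirt7* KO mice, the order of livers of *Saa1*. For *Lcn2*, *Saa2* was nearest of all (0.26), followed outside the 10 genes by *Gm42887* (0.32), *Mt2* (0.35) and *Mt1* (0.38). *Gm42887* had 0 reads in WT mice 2 and 3 and 12 to 34 in the others.

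For *Orm1*, the nearest genes outside the 10 were *Calr* (0.080), *Rbm19* (0.099) and *Abca2* (0.11), and *Saa4* stood at 0.15. The other orosomucoids were farther from it, *Orm3* at 0.36 and *Orm2* at 0.58. *Calr* encodes calreticulin, a chaperone of the endoplasmic reticulum, and stood at 176, 134 and 129 CPM in WT mice and at 285, 246 and 281 CPM in *Sirt7* KO mice. This is a log2 fold change of 0.89 (adjusted p = 0.12 in edgeR). The livers share depth and scaling among all genes, so these distances are descriptions of 6 points.

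**Figure D3:**
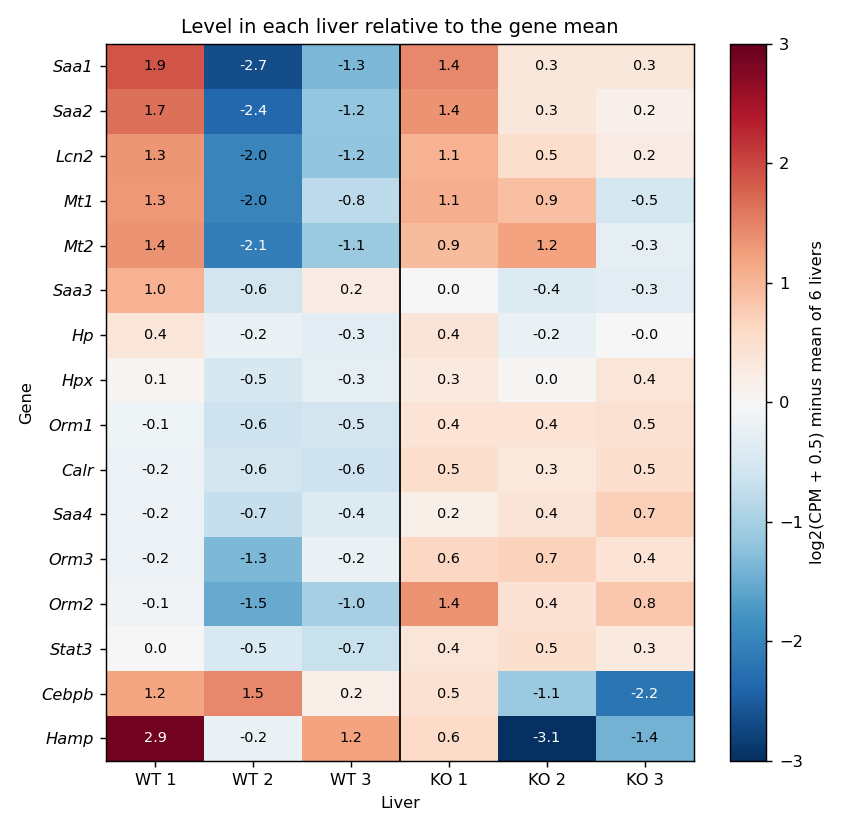
Level of each gene in each liver (columns) as log2(CPM + 0.5) minus the mean of the 6 livers, in color and as a number, for the 10 genes with *Mt1*, *Mt2*, *Calr*, *Stat3*, *Cebpb* and *Hamp*, of which the last was chosen after its values were seen. *Saa1*, *Saa2*, *Lcn2*, *Mt1* and *Mt2* are high in WT mouse 1 and low in WT mice 2 and 3, whereas *Orm1*, *Calr*, *Saa4*, *Orm3* and *Orm2* are below their means in all WT mice and above them in all KO mice.

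Other positive acute phase genes, which rise in plasma during inflammation, were 27 in number, of which 26 were tested and *A2m* had 0 reads. None was called. At an unadjusted p-value under 0.05, 7 were higher in *Sirt7* KO mice and 1 was lower (6.54% and 4.78% of all tested genes). All KO livers were above all WT livers for 7 and below for 0 (8.74% and 8.09% of all tested genes). The median log2 fold change was 0.33. The smallest p-values belonged to *Steap4*, a metalloreductase (log2 fold change 0.88, SE 0.23, adjusted p = 0.20 in edgeR), *C4b*, a complement component with a near-identical copy, *C4a*, that can take its reads (0.64, SE 0.18, adjusted p = 0.22), and *Fga*, the fibrinogen alpha chain (0.87, SE 0.25, adjusted p = 0.24). *Fga* stood at 4970, 2615 and 3098 CPM in WT mice and at 6595, 6673 and 6246 CPM in KO mice. The pentraxins *Crp* and *Apcs* had log2 fold changes of 0.43 and 0.54 (adjusted p = 0.53 and 0.60 in edgeR), and *Crp* was above all WT livers in every KO liver.

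The gene lower at that threshold, *Hamp*, which encodes the iron hormone hepcidin and is named because of its values, stood at 1527, 177 and 473 CPM in WT mice and at 303, 23.5 and 76.4 CPM in *Sirt7* KO mice. KO mouse 1 lay above WT mouse 2, so that the genotypes overlapped (log2 fold change -2.43, SE 0.95, adjusted p = 0.37 in edgeR). Its close copy *Hamp2*, with which reads may be exchanged, had a log2 fold change of 1.95 (adjusted p = 0.36). All 15 negative acute phase genes, whose plasma proteins fall in inflammation, were tested. None was called or had an unadjusted p-value under 0.05, and the median log2 fold change was 0.04. *Alb*, which encodes albumin, and *Ttr*, which encodes transthyretin, had log2 fold changes of -0.07 and -0.14 (adjusted p = 0.94 and 0.81 in edgeR). The smallest p-values belonged to *Apoa1*, the main apolipoprotein of high-density lipoprotein (0.39, adjusted p = 0.46), *Serpina6*, the corticosteroid carrier (-0.50, adjusted p = 0.57), and *Fetub* (0.25, adjusted p = 0.59).

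Of 34 genes of IL-6 and IL-1 signaling, 28 were tested and none was called. At an unadjusted p-value under 0.05, 5 were higher in *Sirt7* KO mice and 2 were lower, compared with 6.54% and 4.78% of all tested genes, and the median log2 fold change was 0.19. All KO livers were above all WT livers for 6 of the 28 and below for 1, compared with 8.74% and 8.09%. The cytokine genes *Il6* and *Lif* had 0 reads in all 6 livers, and *Il1b*, *Tnf* and *Osm* were too low to be tested. *Stat3*, the transcription factor downstream of the IL-6 receptor, stood at 144, 103 and 89.0 CPM in WT mice and at 184, 199 and 175 CPM in KO mice. These groups did not overlap (log2 fold change 0.73, SE 0.19, adjusted p = 0.20 in edgeR). *Lifr*, a receptor of the IL-6 family, was likewise separate, at 65.2, 65.1 and 74.8 CPM against 108, 101 and 116 CPM (log2 fold change 0.66, SE 0.14, adjusted p = 0.15 in edgeR). The IL-6 receptor chains *Il6ra* and *Il6st* had log2 fold changes of -0.07 and 0.03 (adjusted p = 0.92 and 0.98 in edgeR). *Socs3*, an inhibitor that STAT3 induces, stood at 6.27, 4.63 and 2.88 CPM in WT mice and at 8.24, 5.40 and 8.57 CPM in KO mice, with overlap between the genotypes (log2 fold change 0.69, adjusted p = 0.49 in edgeR).

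Among 19 transcription factors of the acute phase, 18 were tested, none was called, and 15 had log2 fold changes below 0 (median -0.10), as did 50.7% of all tested genes. *Cebpb*, which encodes a C/EBP factor of the acute phase response, stood at 56.9, 68.1 and 28.1 CPM in WT mice and at 34.1, 11.1 and 5.01 CPM in *Sirt7* KO mice. KO mouse 1 was above WT mouse 3, and the log2 fold change was -1.60 (SE 0.59, unadjusted p = 0.025, adjusted p = 0.36 in edgeR). *Jun* and *Onecut1* had log2 fold changes of -0.68 and -0.81 (adjusted p = 0.34 and 0.35 in edgeR). Besides *Stat3*, no factor was higher at an unadjusted p-value under 0.05, and 3 were lower, compared with 4.78% of all tested genes.

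Of 19 genes for receptors and clearance partners of these proteins, 16 were tested and none was called, with a median log2 fold change of 0.02. At an unadjusted p-value under 0.05, 0 were higher in *Sirt7* KO mice and 3 were lower, compared with 6.54% and 4.78% of all tested genes. All KO livers were above all WT livers for 2 of the 16 and below for 4, compared with 8.74% and 8.09%. *Cd163*, the macrophage receptor of haptoglobin bound to hemoglobin, had a log2 fold change of -0.69 (adjusted p = 0.81 in edgeR), *Lrp1*, the receptor of hemopexin bound to heme, 0.28 (adjusted p = 0.55), and *Hmox1*, which breaks down heme, 0.20 (adjusted p = 0.83). *Slc22a17*, a receptor of lipocalin 2, was low in all livers and lower in every KO liver, at 2.20, 2.54 and 1.85 CPM against 1.01, 1.27 and 0.867 CPM (log2 fold change -1.06, adjusted p = 0.39 in edgeR). *Blvrb*, a biliverdin reductase, was also below all WT livers in every KO liver (-0.57, adjusted p = 0.24), and *Slc40a1*, the iron exporter, had a log2 fold change of -0.69 (adjusted p = 0.34).

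**Figure D4:**
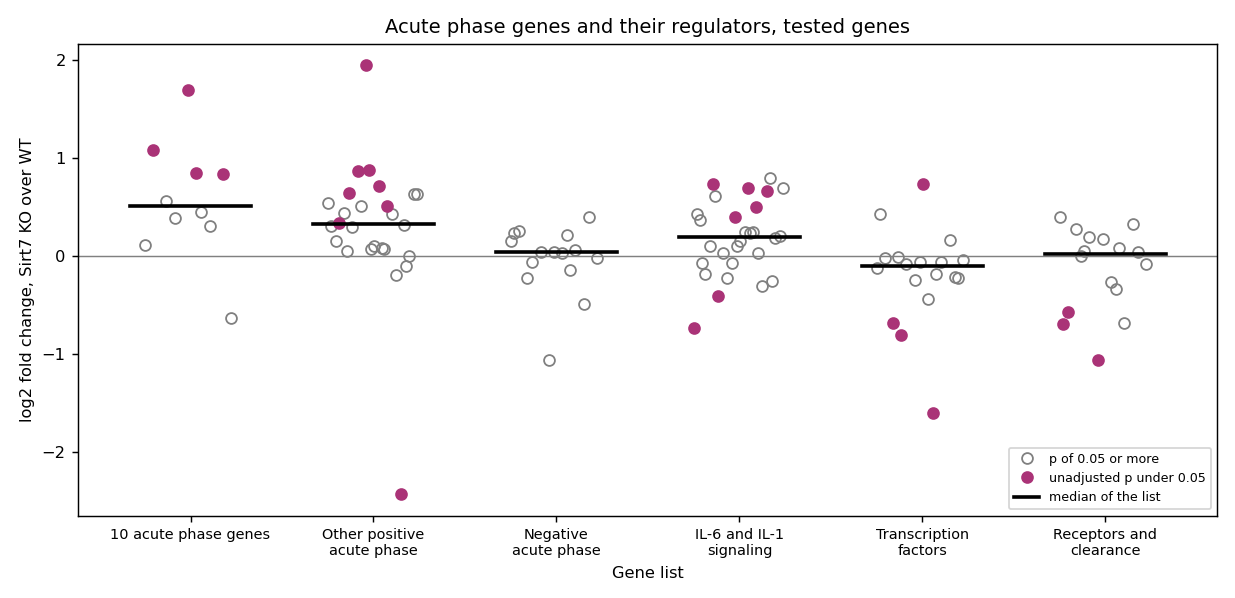
Log2 fold change of *Sirt7* KO over WT (vertical axis, edgeR) of every tested gene of 6 lists, filled where the unadjusted p-value was under 0.05, with a bar at the median of each list. The median is 0.51 for the 10 genes, 0.33 for other positive acute phase genes, 0.04 for negative ones, 0.19 for IL-6 and IL-1 signaling, -0.10 for transcription factors and 0.02 for receptors and clearance.

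Cells other than hepatocytes can also hold mRNA of *Lcn2* and *Saa3*, so marker levels are set beside them. Neutrophil markers summed to 4.72 to 6.77 CPM in WT mice and 5.49 to 11.8 CPM in *Sirt7* KO mice, with the highest sum in KO mouse 1, and *Ly6g* and *Camp* had 0 reads. Only 4 of these 13 markers were high enough to be tested, and none had an unadjusted p-value under 0.05. Kupffer cell markers summed to 97.3 to 244 CPM in WT mice and 94.8 to 251 CPM in KO mice, highest in KO mouse 1 and WT mouse 3, and 1 of 12 passed the unadjusted threshold (*Folr2*, higher in KO mice). Monocyte markers summed to 62.8 to 163 CPM and 57.9 to 119 CPM, and lymphocyte markers to 28.0 to 51.6 CPM and 24.6 to 52.0 CPM. Endothelial and stellate markers summed to 241 to 308 CPM and 214 to 314 CPM. WT mouse 1 was the liver with the highest *Saa3* and *Lcn2*. Among the WT mice it had the lowest Kupffer sum (97.3 CPM, against 103 and 244 CPM in WT mice 2 and 3). It also had the highest neutrophil sum among them (6.77 CPM, against 4.72 and 6.66 CPM). Adipocyte and pancreas markers summed to 9.91 to 14.1 CPM in WT mice and 27.7 to 47.9 CPM in KO mice, nearly all from *Cela1*, an elastase gene (log2 fold change 1.61, adjusted p = 0.092 in edgeR), while *Prss1* and *Pnlip* had 0 reads. The part of these cells in the differences between livers was not tested.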

How the data were processed

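Counts per gene came from livers of 3 WT and 3 *Sirt7* KO mice, grouped by the labels. The authors trimmed reads with Trim Galore 0.6.5 and quantified them with Salmon 1.2.1 on the GRCm38 transcriptome (annotation release not given in the sources used here), from SMART-seq HT and Nextera XT libraries read for 75 bases from a single end, with no molecular identifiers named. The authors deposited estimated counts per transcript, not normalized, and TPM, scaled to effective length and to a total per mouse. Replicates, which the labels call biological, were not pooled, and p-values measure the spread between these mice. Depth covers counting error only.

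Here estimated counts were summed over the transcripts of each GENCODE M21 gene and rounded. Of 140992 transcripts, 1201 had no gene and were left out, with 0.303% to 0.492% of reads. Genes were tested with edgeR 4.0.16 (R 4.3.3; TMM, filterByExpr minimum count 10, quasi-likelihood, Benjamini-Hochberg over 12524 genes), after tests on simulated data. The study's own tool, DESeq2, was an alternative (version 1.42.0), with other normalizations, filters, length offsets, a replicate block, a looser threshold and each liver left out. Exact permutation tests used log2(CPM + 0.5). Standard errors were derived from the log2 fold change and the F statistic. Sequences were compared with Biopython 1.88. The members and lists were chosen with earlier results of these data known. The text names the 10 members, *Sirt7*, 13 related genes given whatever their values, the 3 genes of smallest p in each list (1 is not reported here), and the 3 nearest profiles to *Saa1*, *Orm1* and *Lcn2*. Others were chosen after their values were seen, among them the marker genes named singly. In the tests, lengths of transcripts entered only the offsets, and values given as TPM are also scaled to length.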

Additional observations from a re-analysis of the deposited data

How the results depend on the processing

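Few calls depended on normalization, and more on the tool, the filter and single livers. Against 1 gene called by edgeR among all genes and 0 of the 10 members, total counts called 2 genes, the average length offset 2, DESeq2 257 without and 240 with length offsets (4 and 3 members), and no filter on low counts 633 (4 members). In that last fit the spread of single genes was shrunk wholly to the trend, over 27881 genes. The unadjusted p-value under 0.05 with a fold over 1.5 gave 925 genes and 4 members. Leaving out each liver gave 0 to 252 genes, with 252 without KO mouse 1, and 0 to 1 members. With the replicate number as a block, 41 genes and 1 member were called (*Orm2*, log2 fold change 1.77, adjusted p = 0.018 in edgeR), and summed *Saa1* and *Saa2* moved to 1.39. Deviations of mice with the same number correlated at 0.065, 0.080 and -0.044, and those of mice with other numbers at -0.103 to 0.049. The values of mice 1 and 2 were the highest of these, but all were small. The labels name no pairs, and the numbers were not taken as pairs. Reversed directions were those of *Hp* with total counts (-0.013, where the median of all genes was -0.11), without WT mouse 3 (-0.014) and without KO mouse 1 (-0.066), and, without WT mouse 2, WT mouse 3 and KO mouse 1 in turn, those of *Saa1* (-0.22, -0.12 and -0.15), *Saa2* (-0.12, -0.0076 and -0.080) and their sum (-0.19, -0.094 and -0.14). The highest values with a liver left out were 0.34 for *Hp*, 2.67 for *Saa1*, 2.37 for *Saa2* and 2.59 for the sum, all without WT mouse 1, and none of these passed the threshold. Of 195 recomputed values of single members and sums, 167 kept direction and side of the threshold. DESeq2 gave no p-value for *Saa1*, which it marks as an outlier count, and no adjusted p-value for its sum with *Saa2*. Both were counted as not passing, and so among the 167. The share of reads held by the members differed by 0.176 percentage points between genotypes, 0.045 to 0.41 with each liver left out.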

Other observations

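Genes near the clusters, looked at after the values of the members were seen, were tested within 100 kb on either side. Near the serum amyloids lay *Sergef*, *Saal1*, *Hps5*, *Gtf2h1* and *Ldha*, and near the orosomucoids *Col27a1* and *Akna*. *Gtf2h1*, a subunit of the transcription factor TFIIH, stood at 26.2, 22.1 and 20.8 CPM in WT mice. In *Sirt7* KO mice it stood at 18.4, 16.1 and 18.7 CPM, lower in every KO liver, opposite to *Saa4* in the same cluster. The log2 fold change was -0.38 (unadjusted p = 0.042, adjusted p = 0.41 in edgeR). On the TPM scale the genotypes overlapped, at 10.7, 7.61 and 8.17 in WT mice and 7.03, 7.64 and 11.4 in KO mice. *Col27a1*, a fibrillar collagen gene, stood at 5.08, 6.35 and 7.91 CPM in WT mice and at 11.996, 11.9 and 9.34 CPM in KO mice, higher in every KO liver like the orosomucoids beside it (0.78, adjusted p = 0.27 in edgeR). None of these 7 genes passed the adjusted test.

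*Sdf2l1*, a gene of the endoplasmic reticulum, had the profile nearest to *Orm2* over the 6 livers, with a root mean square difference of 0.26, a log2 fold change of 1.68 and an adjusted p of 0.21 in edgeR. It was looked at after the values of *Orm2* were seen.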
